A study of Mus musculus with 32 samples.

Results

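Immediate early genes are switched on within minutes of a stimulus, from transcription factors already present in the cell. Described here are 10 of them, Fos, Jun, Junb, Egr1, Ier2, Ier3, Btg2, Atf3, Myc and Klf6, out of 55421 genes in the deposited count table. They were taken as a list of symbols, with no threshold on their values, and all 10 were found in the table. The series measured RNA of mouse liver after removal of part of the organ, with and without Mettl14, a subunit of the enzyme that writes N6-methyladenosine (m6A) on mRNA. Each of 16 animals gave an IP library, made from RNA fragments pulled down with an antibody against m6A, and an input library, made from RNA without pull-down. The animals formed 4 groups of 4: hepatectomy with Mettl14 knockout (hepatectomy KO), hepatectomy with the floxed control genotype (hepatectomy flox), sham operation with knockout (sham KO) and sham operation with the floxed control (sham flox). They were 71 to 77 days old, and the 2 animals aged 77 days were both sham flox. The promoter or cell type that drives the deletion, the share of liver removed and the time between surgery and sampling were not given in the sources used here.

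Of the encoded proteins, Fos, Jun, Junb and Atf3 of the AP-1 family are leucine zipper proteins that bind DNA as pairs. Egr1 and Klf6 are zinc finger factors, Myc pairs with Max to drive growth genes, Ier2 and Ier3 are small nuclear or stress-induced proteins, and Btg2 is an antiproliferative protein that recruits the CCR4-NOT deadenylase to mRNAs. In rodent liver many of these genes are known to be induced early after partial hepatectomy, and their mRNAs are short-lived. m6A marks can shorten the life of an mRNA through reader proteins, and the IP signal of a gene depends on both its amount of mRNA and its methylation.

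IP libraries held 7133988 to 24298816 counts in total, and inputs held 8178017 to 12534161. Genes with at least 10 counts numbered 4176 to 9354 per input library and 6676 to 16846 per IP library. Mettl14 had a count in 3 of 8 KO and 5 of 8 flox IP libraries (highest count 60 in KO and 124 in flox). It had none in 8 of 8 KO and 8 of 8 flox input libraries, which allows up to 0.367 CPM (the count scaled to a common library total) in KO and up to 0.294 CPM in flox, so the genotype labels could not be checked at this depth. The 8 hepatocyte markers summed to 34870 to 47660 CPM over the input libraries. The IP and input libraries were made with different kits, and the enrichment of a gene therefore holds the difference between kits as well as the antibody.

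In the IP libraries the immediate early genes were lowest in sham flox livers. The sham flox group had the lowest mean for 9 of the 10 genes, where 31.6% of the 14024 genes tested had it, and the exception was Ier3. Summed over the 10 genes, IP libraries held 864 to 2685 CPM in hepatectomy KO, 776 to 5976 CPM in hepatectomy flox, 773 to 4390 CPM in sham KO and 494 to 661 CPM in sham flox livers. Every sham flox IP library was thus below the 12 others. The input libraries showed no such order: sums were 1765 to 2357, 1156 to 2256, 1620 to 2001 and 1601 to 2222 CPM in the same 4 groups, and sham flox had the lowest mean for 4 of 10 genes (26.2% of the 8775 genes tested). Among single genes only Btg2 passed the test between groups, in 1 of the 4 direct comparisons within the IP libraries. In these bulk samples fewer cells that carry an mRNA and less of it per cell cannot be told apart. The IP level also depends on methylation, as given above, and IP levels alone do not separate this from the amount of mRNA.

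**Figure D1:**
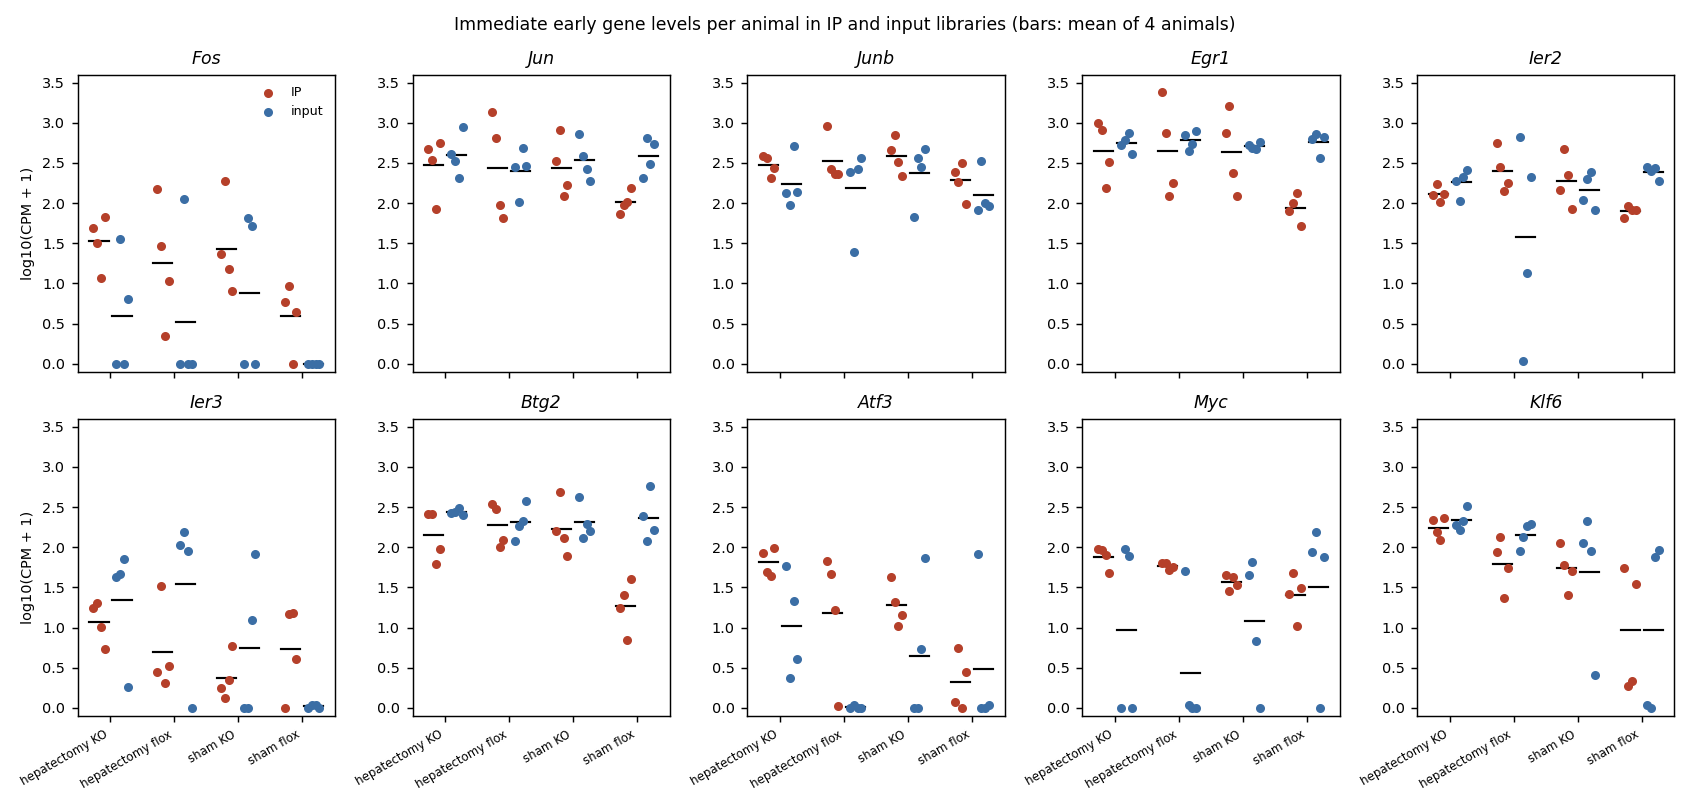
Levels of the 10 genes in every library as log10(CPM + 1), with IP libraries in red, input libraries in blue and the mean of the 4 animals as a bar; groups run from hepatectomy KO to sham flox. The red mean bars of Btg2, Egr1 and Ier2 sit lowest in sham flox, and Fos, Ier3, Atf3 and Myc have input libraries at 0 beside others far above it.

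The spread within groups was large and differed between genes. In hepatectomy flox livers replicates 1 and 2 each had 9 of the 10 genes above their own median over the 16 IP libraries, and replicates 3 and 4 had 2 and 3. In sham KO livers the counts were 8, 8, 5 and 2, in hepatectomy KO livers 9, 10, 4 and 7, and in sham flox livers 0, 2, 2 and 0. The genes that were high in an IP library were thus mostly high together, in libraries of 3 of the 4 groups.

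Btg2 (ENSMUSG00000020423, chromosome 1, 134075170 to 134079120, minus strand) showed the clearest difference. Its IP level was 258, 261, 61.6 and 94.3 CPM in hepatectomy KO, 350, 301, 99.0 and 121 CPM in hepatectomy flox, 159, 486, 129 and 76.7 CPM in sham KO and 16.8, 24.1, 5.93 and 39.4 CPM in sham flox livers. All 4 sham flox values lay below all 12 others, an order that 0.25% of the genes tested had. Its input level was 269, 276, 311 and 248 CPM in hepatectomy KO, 118, 182, 213 and 379 CPM in hepatectomy flox, 426, 129, 197 and 159 CPM in sham KO and 241, 119, 580 and 165 CPM in sham flox livers. These input values overlapped between all groups, and the highest of the 16 belonged to a sham flox animal. The log2 IP/input ratio of single animals was -3.77, -2.26, -6.39 and -2.04 in sham flox livers, against -1.42, 1.91, -0.60 and -1.04 in sham KO livers.

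Between genotypes after sham surgery, Btg2 was higher in the IP libraries of KO than of flox animals by 3.30 on the log2 scale (SE 0.67, edgeR adjusted p = 0.0444, n = 4 each, groups without overlap). Of all genes tested, 0.0428% were called higher in that comparison. The call rested on single libraries: without sham KO replicate 2 the change was 2.34 and the adjusted p = 0.3, without sham flox replicates 1, 2 or 3 it was 3.21, 3.36 and 3 with adjusted p = 0.17, 0.17 and 0.21, and without sham KO replicate 1 or hepatectomy flox replicate 2 the adjusted p was 0.063 and 0.056. Without both sham flox animals aged 77 days the change was 3.23 with an adjusted p of 0.82, and with upper-quartile factors or a mean of at least 10 CPM it was 3.21 and 3.26 with adjusted p = 0.05 and 0.066. After hepatectomy the difference between KO and flox in Btg2 was -0.66 (SE 0.61, adjusted p = 0.801). The interaction, the change with hepatectomy in KO minus that in flox, was -3.96 (SE 0.89, adjusted p = 0.184), so a difference between the surgeries in the effect of genotype did not pass the test.

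The promoter of Btg2 is shown because it holds a full cAMP response element, the site bound by CREB and ATF factors. Promoter windows of 250 bases upstream of the gene start (RefSeq, build GRCm38.p6) were searched for 7 of the 10 genes. Those of Egr1, Ier2 and Myc, and bases further upstream in any gene, were not searched. Printed below are 3 of the windows, in gene direction, with matches in capitals. The Btg2 window is chr1:134079156-134079405 on the minus strand, with TGACGTCA starting 166 bases before the gene start. This palindrome occurred in 1.55% of 32851 RefSeq promoter windows of that length, searched on both strands.
Btg2: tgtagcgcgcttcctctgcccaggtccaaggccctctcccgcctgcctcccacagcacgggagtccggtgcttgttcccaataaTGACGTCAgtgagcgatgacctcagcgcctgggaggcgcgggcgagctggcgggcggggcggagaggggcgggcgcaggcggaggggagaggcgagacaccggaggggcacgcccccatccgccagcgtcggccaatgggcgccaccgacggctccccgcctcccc
The Jun window is chr4:95052223-95052472 on the minus strand, with TGACATCA, a site of the kind bound by pairs of Jun and ATF factors, 45 bases before the start (2.93% of windows, among them that of Klf6).
Jun: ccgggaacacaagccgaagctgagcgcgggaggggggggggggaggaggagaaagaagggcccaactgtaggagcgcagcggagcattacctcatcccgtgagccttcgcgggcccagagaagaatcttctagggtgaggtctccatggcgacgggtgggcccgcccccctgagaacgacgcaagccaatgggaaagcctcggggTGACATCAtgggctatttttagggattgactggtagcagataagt
The Fos window is chr12:85473640-85473889 on the plus strand, with TGACG, the shorter form of the cAMP response element, at 129 and 66 bases (17.8% of windows) and TATAAA at 33 bases before the start (12.4%).
Fos: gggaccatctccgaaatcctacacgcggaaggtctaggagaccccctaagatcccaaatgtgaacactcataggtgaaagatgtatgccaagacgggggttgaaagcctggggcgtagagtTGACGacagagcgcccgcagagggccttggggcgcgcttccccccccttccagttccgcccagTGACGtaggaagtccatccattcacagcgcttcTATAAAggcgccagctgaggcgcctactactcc
TGACG, which is also part of TGACGTCA, further occurred in the windows of Atf3 and Junb. The E-box CACGTG was found in the window of Klf6 (6.02% of all windows), and neither the CArG box of serum response factor nor the AP-1 site TGANTCA in any of the 7 (1.47% and 6.75% of all windows). These matches describe letters and carry no measurement of binding.

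Of the AP-1 genes, Jun and Junb were read in every library, and Fos and Atf3 were not. Jun (ENSMUSG00000052684, chromosome 4, 95049034 to 95052222, minus strand, 1 exon), the main partner of Fos, had IP levels of 469, 341, 82.3 and 565 CPM in hepatectomy KO, 1365, 646, 94.7 and 65.1 CPM in hepatectomy flox, 338, 811, 122 and 169 CPM in sham KO and 71.6, 92.4, 102 and 154 CPM in sham flox livers. Its input levels ran from 201 to 891, 102 to 482, 187 to 713 and 204 to 649 CPM in the same order of groups. The sham flox IP values overlapped with each other group, and the spread of the other groups was several times wider. The log2 IP/input ratio of Jun was below that of every sham KO animal in every sham flox animal (-1.50, -2.80, -1.57 and -1.80 in sham flox). Jun shares 232 exon bases with the antisense gene Junos, which had a count in 7 libraries.

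Junb (ENSMUSG00000052837, chromosome 8, 84974484 to 84978718, minus strand), an AP-1 subunit that can oppose Jun, was the steadiest AP-1 gene in IP. Its IP means were 306 ± 82.9 CPM in hepatectomy KO, 408 ± 334 CPM in hepatectomy flox, 427 ± 213 CPM in sham KO and 209 ± 93.2 CPM in sham flox livers (SD, n = 4 each). All 4 groups overlapped. Its IP/input ratio was above 0 in the mean of each group, at 0.78 ± 1.47, 1.12 ± 1.90, 0.71 ± 1.62 and 0.62 ± 1.22 on the log2 scale in the same order. A typical gene was above 0 too. In the edgeR fits, which scale libraries differently, Junb had 0.13, 1.27, 0.44 and 0.76, against medians over all genes of 0.298, 1.28, 0.705 and 0.946. Junb was called in no group. Junb shares 173 exon bases with Prdx2 on the opposite strand.

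Fos (ENSMUSG00000021250, chromosome 12, 85473890 to 85477273, plus strand) had no count in 11 of 16 input libraries but was at 0 in only 1 IP library. Its IP level was 47.8, 31.2, 10.5 and 66.7 CPM in hepatectomy KO, 148, 28.6, 1.24 and 9.63 CPM in hepatectomy flox, 22.3, 185, 14.0 and 6.996 CPM in sham KO and 4.81, 8.40, 0 and 3.36 CPM in sham flox livers. Input levels above 0 were 34.9 and 5.43 CPM in hepatectomy KO, 112 CPM in 1 hepatectomy flox animal and 64.6 and 51.4 CPM in sham KO, while the 4 sham flox inputs had no count. Atf3 (ENSMUSG00000026628, chromosome 1, 191170296 to 191218039, minus strand), a stress-induced member that can act as a repressor, had IP levels of 84.0, 48.7, 42.8 and 97.4 CPM in hepatectomy KO, 65.7, 45.7, 15.5 and 0.0688 CPM in hepatectomy flox, 41.2, 19.7, 9.57 and 13.5 CPM in sham KO and 0.182, 4.53, 0 and 1.83 CPM in sham flox livers. The IP values of Atf3 did not overlap between KO and flox after sham surgery, nor between hepatectomy and sham in KO. Its input level was at 0 in 7 libraries and reached 82.3 CPM in a sham flox animal.

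Egr1 (ENSMUSG00000038418, chromosome 18, 34859823 to 34864984, plus strand), a zinc finger factor induced by mitogens, combined the steadiest input with one of the most variable IP levels. Its IP level was 992, 819, 154 and 321 CPM in hepatectomy KO, 2431, 753, 121 and 175 CPM in hepatectomy flox, 751, 1618, 237 and 120 CPM in sham KO and 78.9, 100, 132 and 51.1 CPM in sham flox livers. Its input level was 531, 614, 743 and 406 CPM in hepatectomy KO, 702, 447, 548 and 781 CPM in hepatectomy flox, 529, 478, 467 and 577 CPM in sham KO and 626, 717, 365 and 664 CPM in sham flox livers. Within groups the coefficient of variation averaged 82.9% in IP and 21.3% in input, where genes within 2-fold of its level had medians of 29.8% in IP and 38.2% in input. In 3 of the 4 groups replicates 1 and 2 had more Egr1 in IP than in input and replicates 3 and 4 had less, and all 4 sham flox animals had less.

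**Figure D2:**
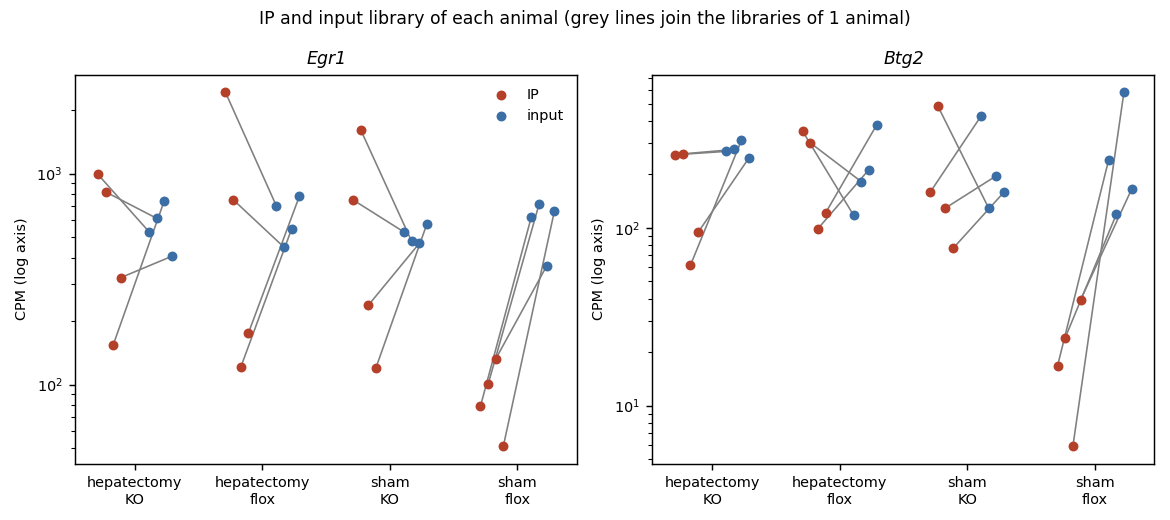
IP (red) and input (blue) levels of Egr1 and Btg2 in CPM on a log axis, with a grey line joining both libraries of an animal; groups run from hepatectomy KO to sham flox. All 4 lines of sham flox animals climb to the input value for both genes, as do those of hepatectomy KO animals for Btg2, and in the other sets of 4 animals lines run both ways.

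Klf6 (ENSMUSG00000000078, chromosome 13, 5861482 to 5870394, plus strand), a zinc finger factor of the Krüppel-like family, and Myc (ENSMUSG00000022346, chromosome 15, 61985391 to 61990374, plus strand) had their highest mean IP level in hepatectomy KO livers. Klf6 had 220, 152, 121 and 232 CPM there, against 87.2, 132, 22.1 and 54.1 CPM in hepatectomy flox, 112, 60.0, 24.3 and 50.2 CPM in sham KO and 53.7, 0.853, 1.15 and 33.8 CPM in sham flox livers. Myc had 94.6, 91.1, 78.8 and 46.4 CPM in hepatectomy KO, 62.1, 62.2, 50.9 and 55.2 CPM in hepatectomy flox, 44.1, 27.6, 41.7 and 33.1 CPM in sham KO and 25.2, 46.7, 9.62 and 30.1 CPM in sham flox livers. For Myc the IP values of hepatectomised animals lay above those of sham animals within each genotype. Klf6 did so in KO livers. Myc had no count in 6 of 16 input libraries and Klf6 in 1. Their IP/input ratios of single animals ran from -1.76 to 6.58 and from -5.13 to 5.66 on the log2 scale.

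Ier2 (ENSMUSG00000053560, chromosome 8, 84661331 to 84662854, minus strand, 1 exon) encodes a small nuclear protein. Its IP level was 124, 170, 101 and 129 CPM in hepatectomy KO, 558, 283, 140 and 174 CPM in hepatectomy flox, 145, 473, 222 and 83.8 CPM in sham KO and 64.5, 91.8, 81.0 and 82.1 CPM in sham flox livers. The hepatectomy flox values lay above the sham flox values without overlap. Its input level ran from 106 to 260 CPM in hepatectomy KO, 0.0843 to 666 CPM in hepatectomy flox, 79.97 to 246 CPM in sham KO and 187 to 280 CPM in sham flox livers. Ier3 (ENSMUSG00000003541, chromosome 17, 35821684 to 35822923, plus strand), a survival factor induced by stress and NF-κB, was the one gene of the 10 with a lowest IP mean outside sham flox. It averaged 12.4 ± 6.77 CPM in hepatectomy KO, 9.33 ± 15.3 CPM in hepatectomy flox, 1.82 ± 2.09 CPM in sham KO and 7.68 ± 7.21 CPM in sham flox IP libraries (SD, n = 4 each). In input it reached 69.5 CPM in hepatectomy KO, 156 CPM in hepatectomy flox and 81.0 CPM in sham KO livers, against at most 0.0981 CPM in sham flox livers.

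**Figure D3:**
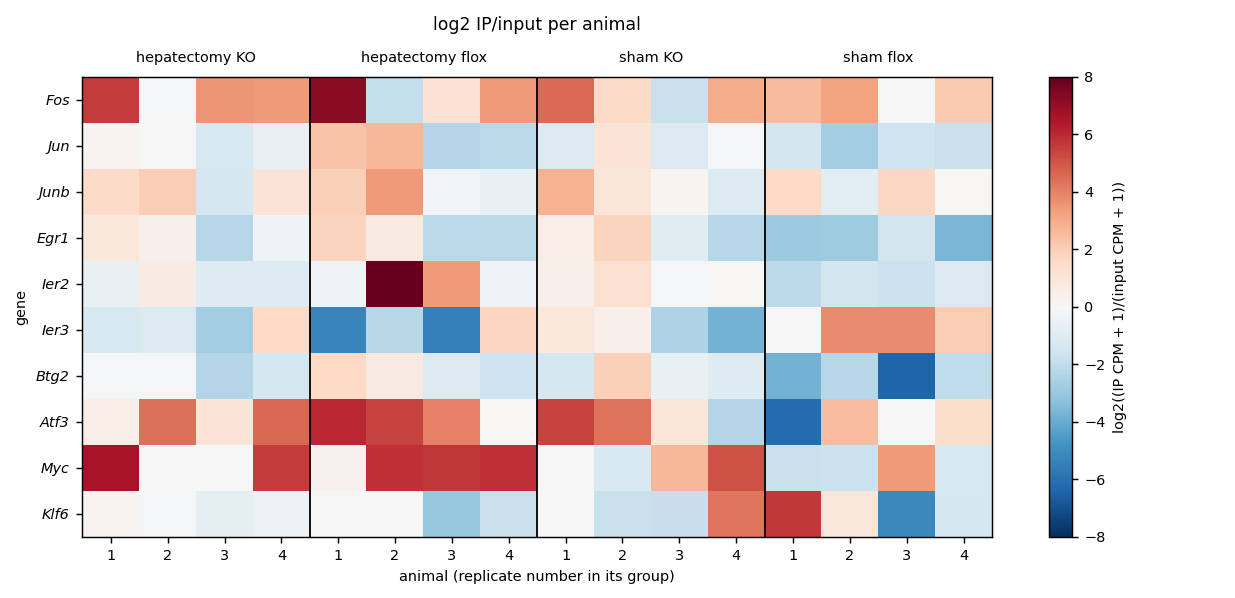
Log2 ratio of IP to input CPM (1 CPM added to each) for the 10 genes (rows) in each of the 16 animals (columns), blue for lower and red for higher in IP. Jun, Egr1, Ier2 and Btg2 are blue in all 4 sham flox animals. Strongly coloured cells of Fos, Ier3, Atf3, Myc and Klf6 mark animals with an input or IP level near 0. So does the deepest red cell, Ier2 in hepatectomy flox replicate 2 (8.03, with 0.0843 CPM in input).

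Hepatectomy against sham within flox animals addressed the response to surgery with the methyltransferase intact. In the IP libraries the fitted change was above 0 for 10 of the 10 genes, where 52.3% of all genes tested were above 0, with a median of 2.20 for the 10 and 0.05 for all genes. None passed the adjusted threshold of 0.05 in edgeR (0.0285% of all genes called higher, 0 lower), while 9 had an unadjusted p under 0.05 (6.92% of all genes) and DESeq2 called 4 (1.95% of all genes). The fitted changes were 3.43 (SE 0.67, edgeR adjusted p = 0.0563) for Btg2, 3.35 (SE 0.82, adjusted p = 0.232) for Egr1 and 1.93 (SE 0.50, adjusted p = 0.302) for Ier2. Those of Jun (2.46, SE 0.74) and Atf3 (4.38, SE 1.30) had adjusted p-values of 0.561 and 0.553. Ier2, Btg2 and Myc did not overlap between the groups, with 2.46% of all genes higher without overlap. Between genotypes after sham surgery, a comparison that shares the sham flox libraries, the change was above 0 for 9 of 10 genes (57% of all genes), with a median of 1.63 against 0.16 for all genes. Btg2 was the gene called by edgeR, 6 genes had an unadjusted p under 0.05 (5.7% of all genes), and Btg2 and Atf3 did not overlap (3.56% of all genes higher without overlap). Egr1 had 2.90 (SE 0.81, adjusted p = 0.406), and Ier3 had -2.36 (SE 1.74, adjusted p = 1).

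The 2 comparisons without sham flox libraries gave smaller values. Between KO and flox after hepatectomy 4 of 10 genes were above 0 in IP (50.3% of all genes), with a median of -0.61 against 0.01 for all genes, and Ier2 was furthest from 0 in units of its error at -1.44 (SE 0.49, edgeR adjusted p = 0.177). Between hepatectomy and sham in KO animals 4 of 10 were above 0 (46.9% of all genes), with a median of -0.31 against -0.09. Atf3, Myc and Klf6 were higher without overlap in hepatectomy KO than in sham KO (2.12% of all genes), at fitted changes of 1.61 (SE 1.16, adjusted p = 0.843), 1.01 (SE 0.54, adjusted p = 0.627) and 1.47 (SE 0.82, adjusted p = 0.662). edgeR and DESeq2 each called none of the 10 in either comparison, where edgeR called 0.342% of genes higher and 1.13% lower between genotypes after hepatectomy, and 0.0499% higher and 0.578% lower with surgery in KO. An unadjusted p under 0.05 was found for 1 of the 10 in each (13.3% and 9.51% of all genes). The interaction, like the averages given after it, again used the sham flox libraries and is no separate support. It was below 0 for 9 of 10 genes and above 0 for 1, where 43.3% of all genes were above 0. The median was -2.70 against -0.25 for all genes, and 6 of the 10 had an unadjusted p under 0.05 (7.89% of all genes). The interaction passed for none in edgeR (0.0285% of all genes called lower, 0 higher) and for 2 in DESeq2 (1.9% of all genes). The values were -2.95 (SE 0.70, edgeR adjusted p = 0.184) for Ier2 and -3.80 (SE 1.10, adjusted p = 0.339) for Egr1. Averaged over both surgeries or both genotypes, none of the 10 passed in edgeR, where 0.485% of all genes were called higher and 0.963% lower between genotypes, and 0.221% and 0.435% between surgeries. DESeq2 called Btg2 between genotypes (5.86% of all genes) and Btg2, Atf3 and Myc between surgeries (3.64%), and 3 and 6 of the 10 had an unadjusted p under 0.05 (13.4% and 10.6%). A p above the threshold does not show that the groups were alike.

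**Figure D4:**
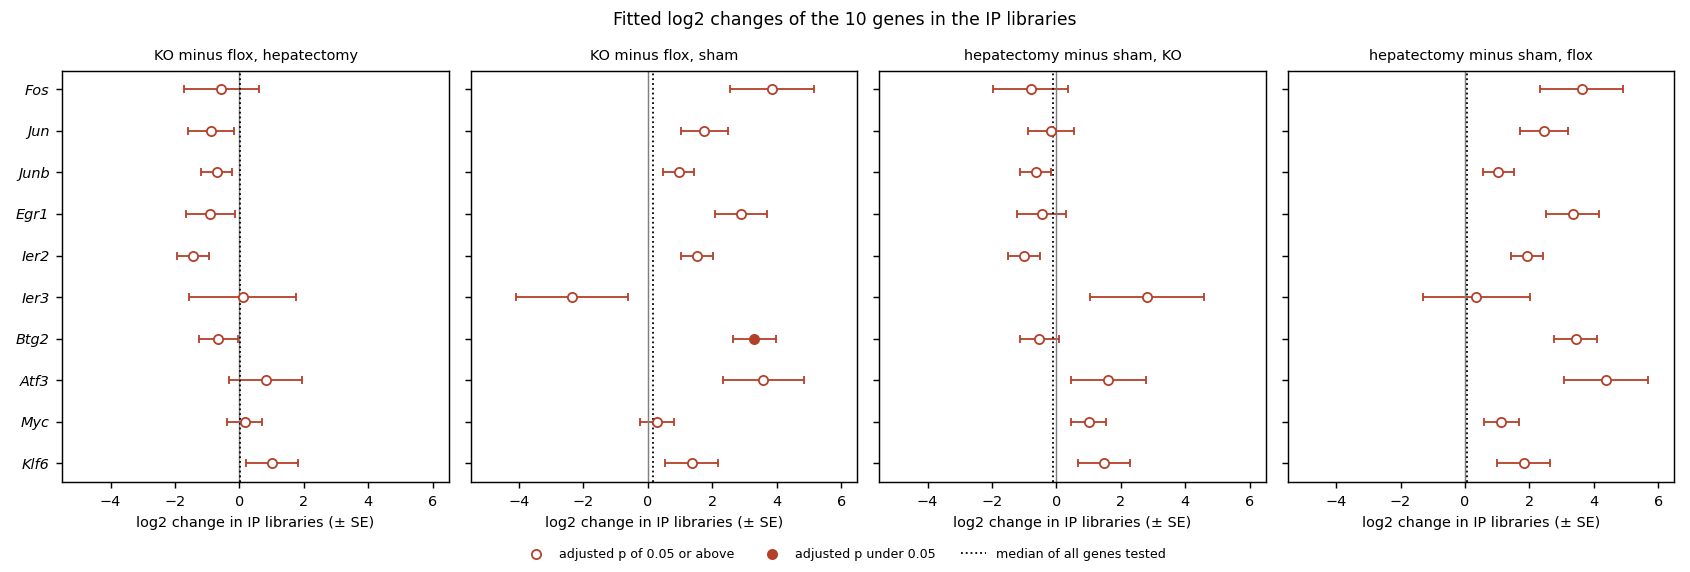
Fitted log2 changes of the 10 genes in the IP libraries with their standard errors, for 4 comparisons; filled points have an adjusted p under 0.05, and dotted lines give the median of all genes tested. The comparisons that hold sham flox (KO minus flox in sham, hepatectomy minus sham in flox) lie mostly right of 0, and Btg2 in the first of them is the filled point.

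Sums of cell type markers differed between the IP libraries too, and several were lowest in sham flox. The Kupffer cell and macrophage markers, 8 of 8 found, summed to 469 to 1143 CPM in hepatectomy KO, 353 to 588 CPM in hepatectomy flox, 429 to 777 CPM in sham KO and 282 to 448 CPM in sham flox IP libraries. Those of stellate cells and fibroblasts, 7 of 7 found, summed to 392 to 590, 213 to 289, 270 to 641 and 155 to 215 CPM in the same order. Cholangiocyte markers, 5 of 5 found, summed to 54.4 to 215, 8.98 to 187, 29.6 to 183 and 5.08 to 35.2 CPM. Neutrophil markers, 4 of 4 found, summed to 0.175 to 63.6, 0 to 17.7, 1.01 to 19.6 and 0.77 to 2.27 CPM, with S100a8, S100a9 and Retnlg at 0 in all sham flox IP libraries. Those of sinusoidal endothelium, 7 of 7 found, summed to 264 to 622, 228 to 310, 360 to 427 and 201 to 391 CPM, with the lowest median in hepatectomy flox. Erythroid markers, 4 of 4 found, went the other way, with the highest median in sham flox. They summed to 15.6 to 44.6, 26.1 to 112, 27.2 to 55.5 and 49.8 to 85.35 CPM. None of the marker genes tested passed in IP between KO and flox after sham surgery or between hepatectomy and sham in flox. Total counts of IP libraries were 7133988 to 19509536, 14542549 to 17711985, 14887659 to 24298816 and 11016846 to 16386670, with overlap between all groups. The sum of the 8 hepatocyte markers in IP was 13070 to 29840 CPM in hepatectomy KO, against 29740 to 45810, 29870 to 46410 and 30520 to 44040 CPM in hepatectomy flox, sham KO and sham flox. The lymphocyte markers Cd79a and Nkg7 had no count in any input library. The part of these cell types, of library depth and of age in the levels of the immediate early genes was not tested.

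IP against input within each group asked which of the mRNAs were enriched by the antibody, called at an absolute log2 of at least 1. In sham flox livers Btg2 was lower in IP than in input by the test (log2 -3.47, SE 0.83, edgeR adjusted p = 0.0415, 4 of 4 animals), where 0.0279% of the 14332 genes tested were called lower and 0.23% higher. With the animal as a block, which the labels allow because both libraries come from the same liver, Btg2 lost the call (-3.32, adjusted p = 0.17) and Egr1 gained it (-2.51, adjusted p = 0.011, against -2.44 and 0.0604 without the block). Without sham flox replicate 3 the value of Btg2 was -2.43 with an adjusted p of 0.15, and without sham flox replicates 1, 2 or 4 it was -3.40, -3.75 and -4.11 with adjusted p = 0.11, 0.11 and 0.066. The call also ended without hepatectomy KO replicates 2 or 3 (adjusted p = 0.065 and 0.051), without sham KO replicates 1 or 3 (0.053 and 0.058) and without both animals aged 77 days (-3.86, adjusted p = 0.27). Jun, Egr1, Ier2 and Btg2 were lower in all 4 sham flox IP libraries than in all 4 inputs, as were 0.956% of all genes. In hepatectomy KO, hepatectomy flox and sham KO livers none of the 10 was called in edgeR, which called 0.0209%, 1.2% and 0% of all genes higher and 0.314%, 0% and 0.0209% lower. DESeq2 called 0, 1 and 0 of them (14.2%, 28.8% and 14.4% of all genes). Counts at an unadjusted p under 0.05 were also 0, 1 and 0 (19.9%, 34.9% and 20.5% of all genes). Myc was higher in all 4 hepatectomy flox IP libraries than in the inputs (17.5% of all genes), 3 of which had at most 1 count of it.

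Over the mean of the 4 groups Fos was called enriched in IP (log2 3.15, SE 1.17, edgeR adjusted p = 0.0304) and Btg2 depleted (-1.06, SE 0.38, adjusted p = 0.0241). Of all genes 33.4% were called enriched and 0.684% depleted, and the median over all genes was 1.63, so a call of enrichment was common and a call of depletion was rare. The fitted value of Fos rests on inputs without a count and depends on the prior count of the fit. Btg2 lost its call with the animal as a block (-1.20, adjusted p = 0.052) and without hepatectomy KO replicates 3 or 4 (-0.95 and -0.94), hepatectomy flox replicate 4 (-0.90), sham KO replicate 1 (-0.92) or sham flox replicates 1 or 3 (-0.98 and -0.81), with adjusted p-values between 0.051 and 0.11. Without hepatectomy flox replicate 3 or sham KO replicate 3 (adjusted p = 0.047 and 0.049) its value came just short of the required size, which also ended the call. Fos lost its call without hepatectomy flox replicate 1 (2.58, adjusted p = 0.078) or sham KO replicate 2 (2.80, adjusted p = 0.074), and without both animals aged 77 days (2.81, adjusted p = 0.1). The IP/input ratio itself did not pass the edgeR test between groups for any of the 10 genes. For the change with genotype edgeR called 0%, 0.00698% and 0.209% of all genes higher and 0.0209%, 0.705% and 4.01% lower (sham, hepatectomy and their mean). For the change with surgery it called 0.133%, 0% and 0.293% higher and 0.0488%, 0.0349% and 0.188% lower (flox, KO and their mean), and for the interaction 0.00698% higher and 0.0279% lower. Between hepatectomy and sham in flox animals its change was 3.79 for Btg2 (SE 1.10, edgeR adjusted p = 0.083), 3.33 for Egr1 (SE 0.89, adjusted p = 0.083) and 3.08 for Jun (SE 0.996, adjusted p = 0.0867), and 6 of the 10 had an unadjusted p under 0.05 (20.5% of all genes). The other three were Atf3 at 13.79 (SE 3.94, adjusted p = 0.083) and, in the opposite direction, Ier3 at -10.27 (SE 3.48, adjusted p = 0.0904) and Fos at -7.90 (SE 3.44, adjusted p = 0.156). The sizes for Atf3, Ier3 and Fos rest on a group of inputs with no or almost no count and are no measure of fold. DESeq2 called 6 there (23.3% of all genes). Between KO and flox after sham surgery the change was 3.33 for Btg2 (SE 1.10, adjusted p = 0.196) and 2.81 for Egr1 (SE 0.88, adjusted p = 0.193), while Ier3 and Fos, with almost no count in the sham flox inputs, were fitted at -11.21 (SE 3.55, adjusted p = 0.193) and -8.04 (SE 3.45, adjusted p = 0.241). Jun, Ier2 and Btg2 were higher without overlap in sham KO than in sham flox livers (1.84% of all genes), and Ier2 and Btg2 in hepatectomy flox than in sham flox livers (1.71% of all genes).

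The input libraries asked the same of mRNA amounts. edgeR called none of the 10 genes in any of the 7 input comparisons, in which 0.0342% of all genes were called higher between genotypes after hepatectomy, 0.0798% in the mean of both surgeries, and at most 0.0114% higher or lower in the others. An unadjusted p under 0.05 was reached by 2 genes between KO and flox after sham surgery (8.98% of all genes), 1 after hepatectomy (14%), 2 between hepatectomy and sham in flox (16.9%) and 0 in KO animals (2.75%). DESeq2 called 2, 1, 3 and 0 in these 4 comparisons (7.3%, 12%, 15.3% and 1.65% of all genes), namely Fos, Ier3 and Atf3, which had no or almost no count in a whole group. The input levels that could be compared in every library, those of Jun, Junb, Egr1 and Btg2, overlapped between groups in all 4 direct comparisons. Atf3 was higher without overlap in hepatectomy KO than in hepatectomy flox inputs (3.83% of all genes). Fos, Ier3, Atf3, Myc and Klf6 were at 0 in 11, 5, 7, 6 and 1 of the 16 inputs. Their within-group coefficients of variation of 161%, 108%, 178%, 126% and 65.8% stood beside medians of 159%, 133%, 161%, 129% and 78.7% for genes within 2-fold of their level. Differences in the amount of Fos, Ier3, Atf3 and Myc mRNA were thus not detectable at the precision of these inputs unless very large. For Klf6 the spread was nearer that of Junb (73.1%). The SE of its log2 change was still 1.33 to 1.37 in the 4 direct comparisons.

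Input levels of different genes can be set side by side per kilobase of exon. IP levels also depend on methylation, so their order is no order of mRNA amounts. On this scale Junb led in IP with a median of 117 CPM per kilobase over the 16 libraries, followed by Ier2 (88.1), Jun (50.7), Egr1 (46.0) and Btg2 (40.1). In input the order was Ier2 (133), Egr1 (126), Jun (101), Btg2 (82.7) and Junb (82.6). The ranges of these 5 genes overlapped in each kind of library, and the order changed with the group: in hepatectomy flox IP libraries the medians were 150.0 for Ier2, 116 for Jun and 108 for Junb. Myc, Klf6, Atf3, Fos and Ier3 had medians of 3.33 to 17.1 CPM per kilobase in IP and of 0 to 28.0 in input.

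Further genes of the same program were counted from lists of symbols. Of 42 further immediate early genes listed by symbol 41 were found and 38 tested in IP. None was called between hepatectomy and sham in either genotype. Their median change in flox animals was 0.39, against 0.05 for all genes. Of the 38, 30 were above 0, where 52.3% of all genes were. Klf9, a glucocorticoid-responsive Krüppel-like factor, was the one called between KO and flox after hepatectomy (log2 -1.61, SE 0.32, edgeR adjusted p = 0.0083). Of 16 tested upstream signalling factors (receptors, kinases and transcription factors that act on these genes), 2 were called lower in KO IP libraries after hepatectomy. They were Egfr, the epidermal growth factor receptor (-2.25, SE 0.39, adjusted p = 0.00175), and Il6ra, the interleukin 6 receptor (-2.09, SE 0.39, adjusted p = 0.00347). In that comparison edgeR called 1.13% of all genes lower. For Egfr the IP/input ratio fell as well (-2.50, SE 0.45, adjusted p = 0.000924). The hepatocyte marker sum was also lowest in hepatectomy KO IP libraries, as given above, and its part in these changes was not tested. Averaged over both surgeries, Gadd45g, a growth arrest gene, was also lower in KO IP libraries (-1.72, edgeR adjusted p = 0.0379, with 0.963% of all genes called lower). Of 17 AP-1 and Myc partners, Nab2, a corepressor of EGR factors, and Max, the partner of Myc, were called enriched in hepatectomy flox IP libraries. Of all genes 1.2% were called higher there. Nab2 and Max had no count in any of the 4 inputs, so no fold is given. None of these lists had a call in an input comparison.

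By likeness to the mean standardised profile of the 10 genes over the 16 IP libraries (12079 genes compared), Chka (Pearson r = 0.877), Mideas (0.843), Tubb4b (0.834), Tubb2a (0.831) and Arsg (0.814) came closest. Chka encodes choline kinase alpha and both Tubb genes encode beta tubulins, whose near-identical sequences make their counts uncertain. Over the 16 input libraries the closest of 7979 genes to the 9 genes with enough counts were Slc35d1 (0.848), Os9 (0.814), Zranb1 (0.798), Onecut2 (0.764) and Plec (0.749). The lists for IP and input had no gene in common. These correlations are descriptions over libraries that share depth and composition.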

How the data were processed

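The authors deposited estimated counts (expected counts) per gene in 32 libraries, not scaled between libraries. Per the submitters' processing notes, reads were handled with fastp and STAR. The counting program, annotation release, genome build and strand setting were not given in the sources used here. Between 1.33% and 8.22% of the values in a library were not whole, and all were rounded. The labels' protocols state that IP RNA was fragmented to about 100 nucleotides and that IP and input libraries came from different kits. The other deposited column that was read, exon length, served for CPM per kilobase.

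Genes were named by position against RefSeq genes on GRCm38.p6, with which 18975 genes shared an exact start or end (36317 named, 1212 after a shift of 1000000 bases). Levels are CPM. The ratio per animal is log2((IP CPM + 1)/(input CPM + 1)). Tests were run in R 4.3.3 with edgeR 4.0.16 (factors by TMM, filterByExpr at a minimum count of 10, quasi-likelihood F-tests, Benjamini-Hochberg adjustment over all genes, threshold 0.05), in one fit each of the 16 input, the 16 IP and all 32 libraries. IP over input was called at an absolute log2 of at least 1. DESeq2 1.42.0, other scalings and filters, blocks and omitted animals were alternatives.

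The input and IP library of an animal are paired by the labels, though their deviations from group means correlated only at -0.01 to 0.07 (median 0.03, 6731 genes). No 2 libraries of a group agreed within sampling noise. The labels do not say that animals of a group were separate in litter or day, so p-values measure the spread between these samples. Limits for a count of 0 rest on 3 counts and cover counting error only. The 10 genes and all lists were chosen with earlier results of these data known. The text describes all 10 genes, members of the other lists that passed the test (some genes are not reported here), and the 5 genes most like the 10 by Pearson r. Markers of other liver cell types were summed.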

Additional observations from a re-analysis of the deposited data

Results flagged for a closer look

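Dixon's test at 95% flags about 1 of 20 groups by chance only where values are normally distributed. CPM values are skewed, and a lone count beside libraries without one is always flagged. A group without any count, such as Fos in sham flox inputs, cannot be flagged. The number of flagged groups was therefore not compared with that rate. In 12 of 80 groups of 4 libraries (10 genes, IP and input) the highest library stood apart from the others by this test. In IP these were Fos in sham KO replicate 2 (185 CPM, next 22.3), Junb in hepatectomy flox replicate 1 (908 CPM, next 264) and Ier3 in hepatectomy flox replicate 2 (32.2 CPM, next 2.34).

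The other 9 were input libraries. Fos had 34.9 CPM in hepatectomy KO replicate 2 and 112 CPM in hepatectomy flox replicate 2. Junb had 515 CPM in hepatectomy KO replicate 3 and 331 CPM in sham flox replicate 2, with next values of 135 and 100 CPM. Ier3 had 81.0 CPM in sham KO replicate 4. Atf3 had 0.0843 CPM in hepatectomy flox replicate 2, which is a count of 1 beside 3 libraries at 0, 72.1 CPM in sham KO replicate 4 and 82.3 CPM in sham flox replicate 1. Myc had 49.5 CPM in hepatectomy flox replicate 1, next to 0.0843 CPM.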

How the results depend on the processing

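Counts of the 10 genes called were most sensitive to the tool, the filter and single animals. With DESeq2 the counts in input were 2, 1 and 1 (KO against flox in sham, hepatectomy and their mean; 7.3%, 12% and 15.6% of all genes), 3 and 2 (hepatectomy against sham in flox and the mean; 15.3% and 13.8%) and 2 (interaction, 13.8%), in place of 0. In IP they were 1 (KO against flox, mean, 5.86%), 4 and 3 (hepatectomy against sham, flox and mean, 1.95% and 3.64%) and 2 (interaction, 1.9%). For IP over input they were 1 in hepatectomy flox (28.8%) and 5 in sham flox (24.5%). For IP/input they were 4, 1 and 2 (KO against flox in sham, hepatectomy and mean, 17.2%, 22.4% and 23.7%), 6 and 2 (hepatectomy against sham in flox and mean, 23.3% and 22.1%) and 4 (interaction, 22.1%). Counts of 1 in input, IP over input or IP/input, and of 2 in IP/input, are below these shares. Counts of 2 in input are above them (7.3%, 13.8% and 13.8%), though they are 2 of only 10 genes. In the direct input comparisons the genes called had no or almost no count in a whole group, as given above. Without a filter on low counts IP gave 4 and 2 between KO and flox (sham and mean). It gave 6 and 5 between hepatectomy and sham (flox and mean) and 4 for the interaction. Btg2 and Egr1 were in all 5, which all use the sham flox libraries and are no separate support. The edgeR adjusted p of Egr1 between KO and flox in sham was 1.8e-12 without the filter, against 0.41 with it. Without the filter there were also 2 for IP over input in sham flox and 1 for IP/input between hepatectomy and sham in flox. For this and all settings below, the share of all genes called was not computed, so these counts cannot be set against it. With a mean of at least 10 CPM the count was 0 for KO against flox in sham IP libraries, 1 and 2 for IP over input in hepatectomy and sham flox, and 0 for its mean over the groups. Upper-quartile factors gave 0, 2 and 1 for KO against flox in sham IP, IP over input in sham flox and its mean. Library totals gave 1 for hepatectomy against sham flox in IP and 2 for IP over input in sham flox, a fit of only the compared groups 3 for IP over input in sham flox, and the fit without the animals aged 77 days 0 for it and 0 for KO against flox in sham IP.

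Leaving out 1 animal at a time gave 0 to 1 calls for KO against flox in sham IP, for hepatectomy against sham in flox IP and in the mean, for IP over input in hepatectomy flox and for the mean IP/input between genotypes, 0 to 2 for IP over input in sham flox and 1 to 2 for its mean. Signs turned for Egr1 between KO and flox after hepatectomy (range -1.35 to 0.43, the last without hepatectomy flox replicate 1) and for Egr1 and Btg2 between hepatectomy and sham in KO (ranges -0.91 to 0.58 and -0.85 to 0.43, both upper ends without sham KO replicate 2). The cause was not tested. Same-numbered libraries of different groups correlated at -0.09 to 0.25 in IP and -0.05 to 0.03 in input over all genes compared. Such a correlation cannot decide whether the immediate early genes follow the replicate number. In IP libraries of hepatectomy flox, replicates 1 to 4 had 9, 9, 2 and 3 of these genes above their median. The counts were 8, 8, 5 and 2 in sham KO and 9, 10, 4 and 7 in hepatectomy KO. In sham flox they were 0, 2, 2 and 0. No cause of this pattern was tested. With that number as a replicate block Btg2 passed between hepatectomy and sham in flox IP libraries (3.28, adjusted p = 0.036, a count of 1). In fits of IP and input together the block was the animal: Btg2 lost and Egr1 gained a call in sham flox, as given above, and Fos and Myc, not Btg2, were called in the mean of the groups. In input Fos, Ier3, Atf3 and Myc mostly lie at or near 0 or far above it in libraries of like depth, which limits their comparison.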
